A study of Mus musculus with 8 samples.

Results

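The immunoglobulin heavy chain constant region genes of the mouse lung were followed across a mouse model of COPD and a herbal diet. They are 8 genes of the 52636 in the count files, Ighm, Ighd, Ighg3, Ighg1, Ighg2b, Ighg2c, Ighe and Igha, taken by name as the complete set of constant region genes that the locus carries for an antibody class or subclass. They were chosen by their levels and by their shares of the summed heavy chain counts in all 8 libraries, which were already known, so those values are given as a description. Of the 8 genes, 7 passed the filter on low counts that left 20546 genes for the test, and Ighe did not.

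Total lung RNA was sequenced from wild type male C57BL/6 mice in 8 libraries, with 4 groups of 2. PBS was instilled into the trachea of control mice. COPD mice were instead given porcine pancreatic elastase at 10 weeks of age and lipopolysaccharide (LPS) from 12 weeks of age, which produces emphysema with added inflammation. Each was fed from 8 weeks of age either the control diet or a diet holding 2% TJ-41, the Japanese herbal medicine hochuekkito. The 4 groups are thus control diet-fed control mice, TJ-41-fed control mice, control diet-fed COPD mice and TJ-41-fed COPD mice. The age at which the lungs were taken for RNA and the number of mice behind each library are not given in the sources used here, so p-values measure only the spread between libraries, which may be technical.

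An antibody is built of heavy and light chains, and the constant region of the heavy chain sets its class: IgM, IgD, IgG, IgE or IgA. A naive B cell makes IgM and IgD together from a long transcript that is spliced to either Ighm or Ighd. After activation the cell can cut and rejoin the locus, so that a downstream constant gene takes the place of Ighm, and a plasma cell then secretes that class in large amounts from abundant heavy chain transcripts. In lung, IgA and IgM are carried across the airway epithelium, IgG reaches the alveoli, and IgE arms mast cells. C57BL/6 mice carry Ighg2c where some other strains carry Ighg2a.

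The 8 genes lay in a row on the minus strand of chromosome 12 of GRCm38 (GENCODE release M21). Ighm came first at chr12:113418558-113422730, followed by Ighd at chr12:113406604-113416324. The IgG genes followed as Ighg3 at chr12:113356224-113361232, Ighg1 at chr12:113325240-113330523, Ighg2b at chr12:113302965-113307933 and Ighg2c at chr12:113285325-113288932. Ighe lay at chr12:113269260-113273248 and Igha, the last, at chr12:113254830-113260236, with its start 162 kb from the start of Ighm. The identifiers were ENSMUSG00000076617 for Ighm, ENSMUSG00000104213 for Ighd, ENSMUSG00000076615 for Ighg3, ENSMUSG00000076614 for Ighg1, ENSMUSG00000076613 for Ighg2b, ENSMUSG00000076612 for Ighg2c, ENSMUSG00000087642 for Ighe and ENSMUSG00000095079 for Igha. Their exons overlapped no exon of another gene.

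The 4 IgG genes resemble each other, which matters for how reads are assigned to them. Their first constant domain exons were all 291 bases long, and the identity between pairs ran from 78.4% for Ighg3 and Ighg2c to 88.3% for Ighg1 and Ighg2b. Of all stretches of 50 bases in the annotated transcripts, 5.49% in Ighg2c, 4.15% in Ighg2b, 1.58% in Ighg3 and 0.393% in Ighg1 occurred in another gene as well, and none did in Ighm, Ighd, Ighe or Igha. Counts of Ighg2b and Ighg2c are therefore the least certain of the family, since the treatment of shared reads is not given in the sources used here. The subclasses are most easily told apart in the hinge, the flexible stretch between the arms and the stem of the antibody, where cysteines join both heavy chains. The hinge exons are shown from the GENCODE M21 transcripts, 5′ to 3′, with each in-frame cysteine codon in capitals.
Ighg3 (chr12:113360529-113360576): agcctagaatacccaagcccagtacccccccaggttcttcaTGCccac
Ighg1 (chr12:113329844-113329882): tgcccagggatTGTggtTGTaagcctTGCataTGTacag
Ighg2b (chr12:113307261-113307326): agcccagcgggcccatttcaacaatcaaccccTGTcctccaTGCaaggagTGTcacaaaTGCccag
Ighg2c (chr12:113288263-113288325): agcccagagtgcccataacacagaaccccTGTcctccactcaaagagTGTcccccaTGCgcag

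The Ighg3 hinge exon held 1 cysteine codon in 48 bases, the Ighg1 exon 4 in 39 bases, the Ighg2b exon 4 in 66 bases and the Ighg2c exon 3 in 63 bases. IgM and IgA share another feature, a tail on the secreted heavy chain whose penultimate residue, a cysteine, binds the J chain and so links antibodies into polymers. The last 60 coding bases of the secreted forms are shown with that cysteine codon in capitals, because the J chain gene was among the genes that moved with the family.
Ighm (chr12:113420870-113420929): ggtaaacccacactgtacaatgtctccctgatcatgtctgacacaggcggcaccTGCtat
Igha (chr12:113258771-113258830): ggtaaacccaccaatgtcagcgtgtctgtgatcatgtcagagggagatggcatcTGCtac

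The libraries held 18767295 to 20888042 counts on genes. Defining genes of lung were high in all of them, with Sftpc, the surfactant protein of alveolar type II cells, between 9504 and 25921 CPM (counts scaled to a common library size). The COPD libraries on the control diet differed from each other more than the replicates of any other group, with a standard deviation of 0.675 for the log2 difference between them over genes against 0.313 to 0.377 elsewhere. Replicate 2 of that group was the higher in Sftpc, and the summed CPM of 10 lung genes was 30652 in replicate 1 and 65945 in replicate 2. Fold changes for these libraries are given below also with each left out.

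In control diet-fed control mice, the lung held mainly IgM transcript. Since longer genes collect more reads, genes were ranked by CPM per kilobase of exon. Ighm led with 172 CPM per kilobase (172 and 173 in the 2 libraries), followed by Ighd with a mean of 68.0 and Igha with a mean of 51.4, whose libraries at 33.5 and 69.4 enclosed those of Ighd. The IgG genes came far lower, with means of 4.36 for Ighg2b, 4.05 for Ighg2c, 1.19 for Ighg3 and 0.241 for Ighg1, where Ighg2b and Ighg2c overlapped and the others did not. Ighe had no count in either library.

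In control diet-fed COPD mice, Ighm still led with a mean of 639 CPM per kilobase, and the genes behind it had changed places. Igha (309), Ighg2b (229) and Ighg2c (220) followed, each overlapping its neighbour. Ighg3 came next with 50.7, then Ighd with 46.5 and Ighg1 with 18.3, where neighbours again overlapped. Ighd, second in control diet-fed control mice, was thus sixth, and the order of the genes was the same in TJ-41-fed COPD mice. In TJ-41-fed control mice the order was Ighm (222), Igha (137), Ighd (63.3), Ighg2b (35.0), Ighg2c (9.30), Ighg3 (4.0) and Ighg1 (0.674), with no overlap between neighbours.

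**Figure D1:**
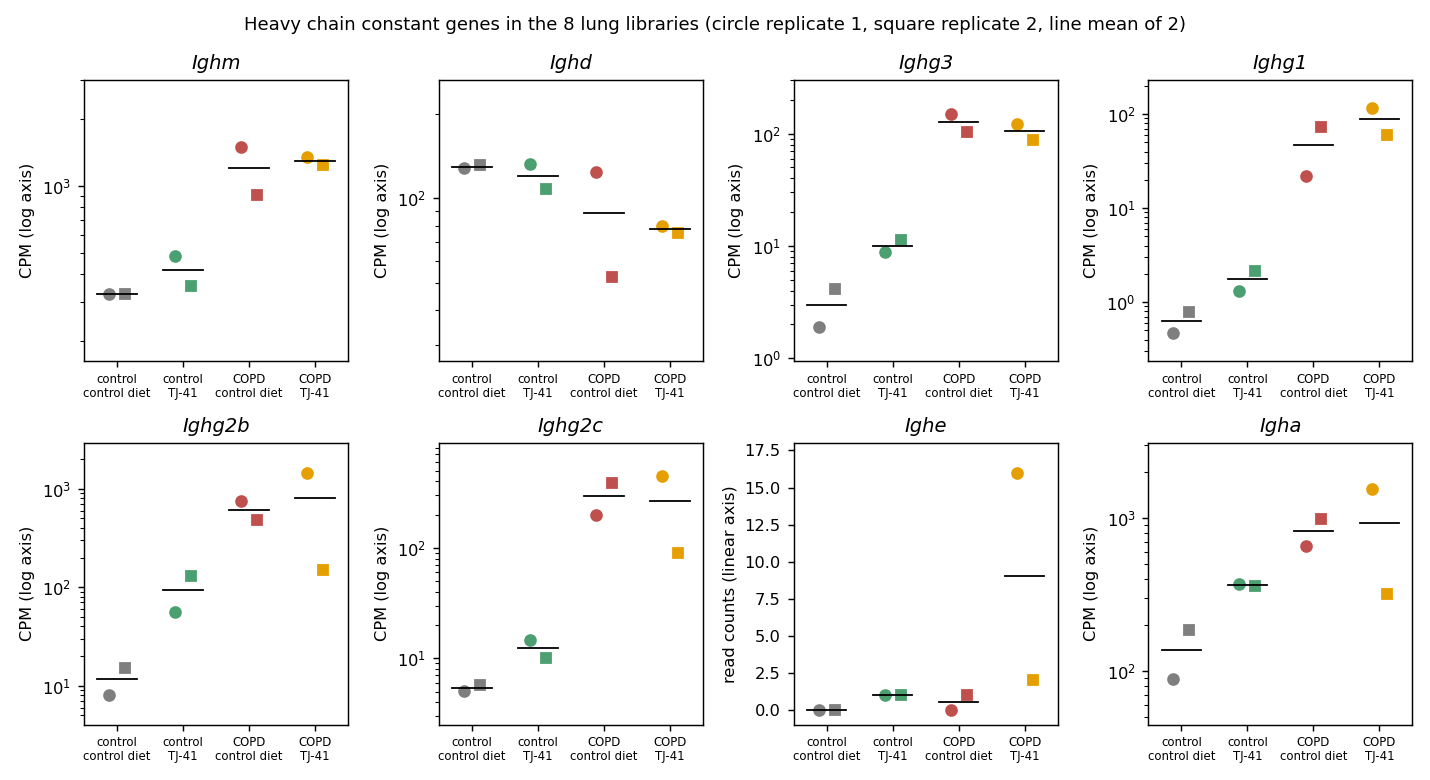
Level of each heavy chain constant gene in the 8 lung libraries, in CPM on a log axis, with Ighe in read counts on a linear axis. Circles are replicate 1, squares replicate 2 and lines the mean of 2 libraries. In the IgG panels both COPD groups lie above both groups of control mice, with 1 low library in TJ-41-fed COPD mice for Ighg2b, Ighg2c and Igha, while Ighd points downward.

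The first comparison asked what elastase and LPS did on the control diet. IgG transcripts were higher by the largest factors, IgM and IgA by smaller ones, and IgD was the only tested class that was lower. All 7 tested genes separated the groups without overlap, 6 of them higher and 1 lower in COPD mice, where 13.6% of all genes tested were higher without overlap and 14.1% lower. The genes were chosen with these values known, so nothing is read from that count.

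Ighm, the first constant gene to be used by every B cell, stood at 324 and 327 CPM in control mice and at 1501 and 910 CPM in COPD mice. Both COPD libraries lay above both controls, and the means differed 3.71-fold (325 ± 2.09 against 1206 ± 418 CPM, SD, n = 2). The fitted log2 fold change was 1.89 with a standard error (SE) of 0.26, and it was 1.48 without replicate 1 of COPD mice and 2.21 without replicate 2.

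Ighd, which marks mostly naive B cells, stood at 128 and 131 CPM in control mice and at 124 and 52.7 CPM in COPD mice. The COPD libraries were lower in both cases, but replicate 1 only by a narrow margin, and the log2 fold change was -0.55 (SE 0.33). Without replicate 1 of COPD mice it was -1.30, and without replicate 2 it was -0.06, so the size of the difference depended on which library was kept. In bulk RNA, fewer cells of a type and less RNA per cell cannot be told apart.

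Ighm and Ighd are spliced from the same long transcript in naive B cells, so their ratio was followed within each library. Control mice on the control diet had 2.53 and 2.50 Ighm counts for each Ighd count, and TJ-41-fed control mice had 3.64 and 3.27. COPD mice had 12.1 and 17.3 on the control diet and 16.9 and 16.5 on the TJ-41 diet. The ratio separated COPD mice from control mice in all libraries on either diet, and every COPD library taken alone was above all 4 libraries of control mice. It differed most between replicates in control diet-fed COPD mice. Its means were 2.52 ± 0.0223, 3.46 ± 0.262, 14.7 ± 3.65 and 16.7 ± 0.299 (SD, n = 2) in the order just given.

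**Figure D2:**
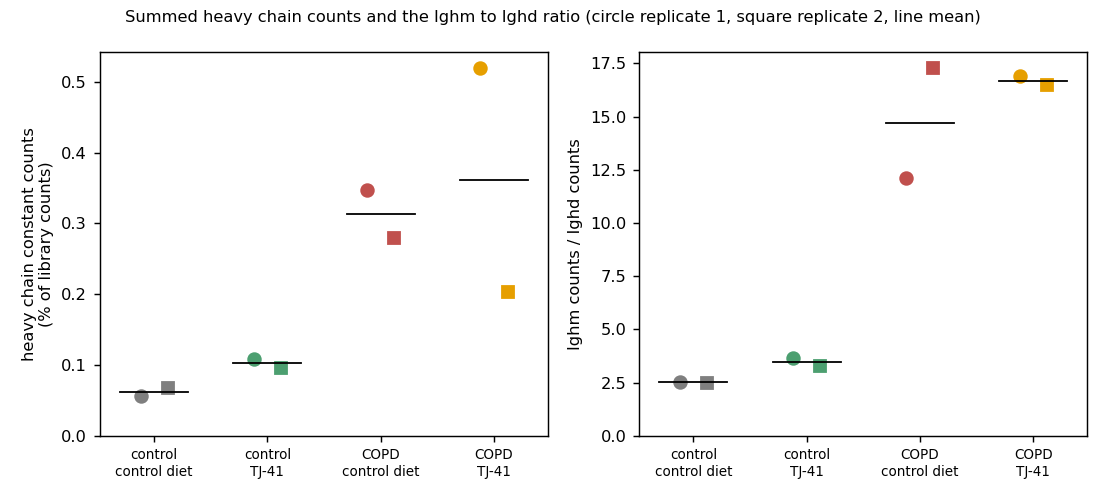
Left, summed counts of the 8 heavy chain constant genes as a percentage of the counts of each library; right, Ighm counts divided by Ighd counts. Circles are replicate 1, squares replicate 2 and lines the mean of 2 libraries, and both axes start at 0. The ratio runs from 2.50 to 3.64 in control mice and from 12.1 to 17.3 in COPD mice.

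Ighg3, whose product is made early and often against bacterial polysaccharides, stood at 1.88 and 4.10 CPM in control mice and at 151 and 104 CPM in COPD mice. The means differed 42.6-fold, and the log2 fold change of 5.41 had the smallest SE of the IgG genes (0.39). Ighg1, the subclass favoured by IL-4, was the rarest IgG gene at 0.471 and 0.779 CPM, which were 9 and 15 reads, against 22.0 and 73.0 CPM, a log2 fold change of 6.23 (SE 0.71). The COPD libraries were far above the controls for both genes and in opposite order, replicate 1 being the higher for Ighg3 and the lower for Ighg1.

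Ighg2b, a subclass that TGF-beta favours and that binds Fc receptors and complement well, stood at 8.06 and 15.3 CPM in control mice and at 744 and 481 CPM in COPD mice. It was the most abundant IgG gene by CPM in every library, and its log2 fold change of 5.71 had the widest error of the family (SE 1.01). Ighg2c, the subclass favoured by interferon gamma, stood at 5.02 and 5.71 CPM against 197 and 387 CPM, a log2 fold change of 5.76 (SE 0.74). The 4 IgG genes had log2 fold changes between 5.41 and 6.23, and their standard error bars overlapped. Without replicate 1 of control diet-fed COPD mice they were 5.11 for Ighg3, 6.85 for Ighg1, 5.36 for Ighg2b and 6.16 for Ighg2c. Without replicate 2 they were 5.66, 5.12, 5.99 and 5.20, so that the order of the IgG genes depended on the library kept.

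Igha, the class of mucosal surfaces, stood at 89.4 and 185 CPM in control mice and at 656 and 990 CPM in COPD mice. The groups did not overlap, the means differed 6.0-fold, and the log2 fold change was 2.58 (SE 0.64), or 2.85 and 2.26 without replicate 1 or 2 of COPD mice. Ighe had 0 counts in both control libraries and 0 and 1 in control diet-fed COPD mice, all under the floor of 3 counts, which was 0.153 to 0.162 CPM. At this depth IgE transcript could not be told from none in either group.

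Of the 7 tested members, 4 were called on the control diet at an adjusted p under 0.05 and a log2 fold change beyond 1 (Ighm, Ighg3, Ighg1 and Ighg2c), where 0.122% of all genes tested were called, and nothing is read from that share because the members were chosen with this contrast known. Calls here and below are by edgeR's quasi-likelihood test unless another is named. Ighm lost its call with scaling by library size alone, with a filter at a mean of 1 CPM and in a fit of only the 2 groups, and Ighg2c lost it with the replicate number as a block. Ighg2b gained a call with DESeq2, with edgeR's exact test, with all genes of at least 1 count and in a fit of only the 2 groups. Igha gained a call with the exact test and with all genes of at least 1 count. The number of calls turned on single libraries. It was smaller with either control library left out and larger without replicate 1 of COPD mice. The share of all genes called in those fits was not computed. The direction of all 7 was the same in each of these fits.

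The same question was asked on the TJ-41 diet, with other libraries. Ighm stood at 482 and 355 CPM in control mice and at 1350 and 1245 CPM in COPD mice, a log2 fold change of 1.63 (SE 0.26). Ighd stood at 132 and 108 CPM against 79.8 and 75.4 CPM, a log2 fold change of -0.63 (SE 0.33). Both genes separated the groups without overlap, and the COPD replicates lay within 1.08-fold for Ighm and 1.06-fold for Ighd.

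Ighg3 stood at 8.81 and 11.3 CPM in TJ-41-fed control mice and at 123 and 88.0 CPM in COPD mice, a log2 fold change of 3.39 (SE 0.35). Ighg1 stood at 1.33 and 2.16 CPM against 116 and 59.9 CPM, a log2 fold change of 5.65 (SE 0.64). These genes again lay far apart between the groups, with replicates of COPD mice within 1.40-fold and 1.94-fold.

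The other IgG genes and Igha differed widely between the COPD replicates on the TJ-41 diet. Ighg2b stood at 56.5 and 131 CPM in control mice and at 1450 and 148 CPM in COPD mice, so replicate 2 was barely above the higher control and the replicates differed 9.81-fold. Ighg2c stood at 14.6 and 10.1 CPM against 444 and 89.9 CPM, with replicates 4.94-fold apart and both above the controls. Igha stood at 372 and 359 CPM against 1546 and 318 CPM, where replicate 2 was below both controls and the groups overlapped.

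The log2 fold changes were 3.09 (SE 0.88) for Ighg2b, 4.44 (SE 0.69) for Ighg2c and 1.35 (SE 0.61) for Igha. Without replicate 1 of TJ-41-fed COPD mice they were 0.66, 2.87 and -0.20, so that the direction of Igha turned, and without replicate 2 they were 3.96, 5.18 and 2.09. Ighe had 1 count in each control library and 16 and 2 counts in COPD mice. The 16 counts in replicate 1, or 0.835 CPM, were the only value of Ighe above the floor in the 8 libraries, and they made up 0.0163% of the heavy chain counts of that library (95% exact Clopper-Pearson interval 0.00933% to 0.0265%, which covers counting error only). They came from the library that was also highest in Ighg1, Ighg2b, Ighg2c and Igha.

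On this diet 5 of the 7 tested members were higher without overlap, where 28.5% of all genes were, and 1 was lower, where 27.9% were. Ighg3 and Ighg1, 2 of the 7, were called, against 0.0779% of all genes tested. The number of calls depended on single libraries here too, and the share of all genes called with a library left out was not computed.

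**Figure D3:**
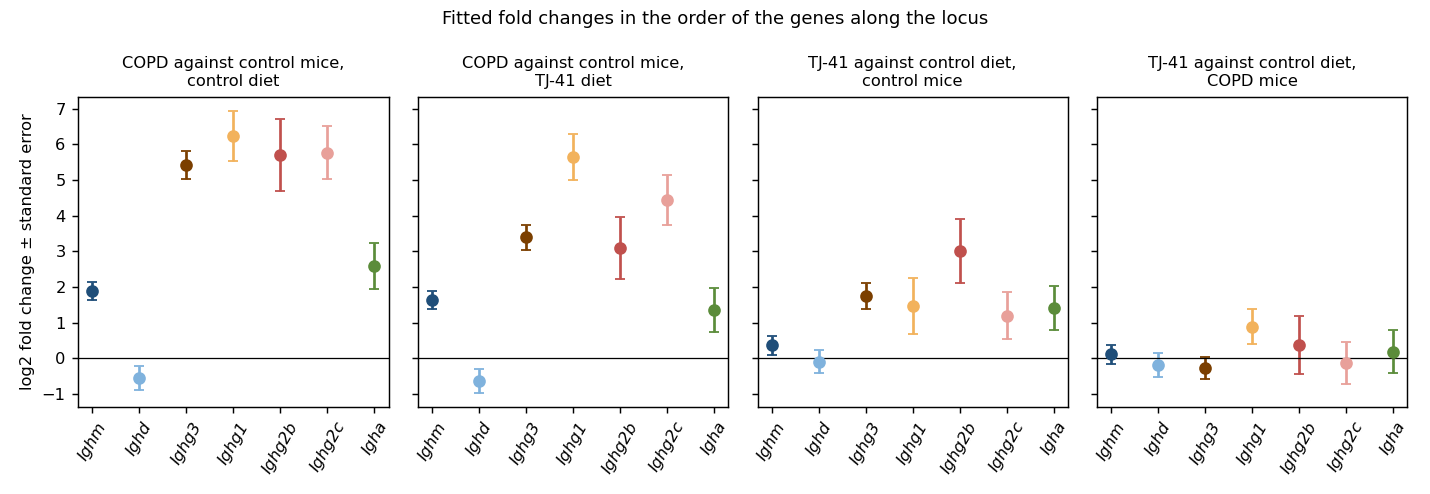
Fitted log2 fold changes of the 7 tested genes with their standard errors, in the order of the genes along the locus, for the 4 comparisons. Against control mice the IgG genes lie between 3.09 and 6.23 on either diet and Ighd below 0. For the TJ-41 diet in COPD mice the values lie between -0.27 and 0.89.

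How control mice responded to the TJ-41 diet was the second question of the study. All 4 IgG genes, Igha and Ighm were higher without overlap on the TJ-41 diet in these libraries, each by a smaller factor than between COPD mice and control mice on the control diet. This comparison shares its control diet libraries with the comparison of COPD mice on that diet and its TJ-41 libraries with the other, so the values are not independent of those above.

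Ighg2b, at 8.06 and 15.3 CPM on the control diet and at 56.5 and 131 CPM on the TJ-41 diet, had the largest difference, 8.02-fold between means and a log2 fold change of 3.0 (SE 0.90). Ighg3 differed by 1.74 on the log2 scale (SE 0.37), Ighg1 by 1.47 (SE 0.79) and Ighg2c by 1.20 (SE 0.66). Igha, with 89.4 and 185 CPM against 372 and 359 CPM, differed by 1.41 (SE 0.62), and its TJ-41 libraries were almost alike. Without replicate 1 or 2 of control diet-fed control mice Ighg3 differed by 1.29 or 2.41, and Igha by 0.98 or 2.02.

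Ighm differed by 0.36 (SE 0.26), or by 0.11 without replicate 1 of TJ-41-fed control mice. Ighd differed by -0.10 (SE 0.32), with overlapping libraries. Higher without overlap were thus 6 of the 7 tested members, against 19.1% of all genes. None of the 7 was called, as was no gene among the 20546 by edgeR's quasi-likelihood test (0% of all genes tested), with 336 of all genes at an unadjusted p under 0.05. Under DESeq2 and under edgeR's exact test, 1 member was called, Ighg3 in both.

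In COPD mice, the TJ-41 diet was compared with the control diet in the same way. The libraries of the diets overlapped for all 7 tested members, where 14.1% of all genes were higher and 14.9% lower without overlap. Log2 fold changes were 0.11 (SE 0.26) for Ighm, -0.19 (SE 0.33) for Ighd, -0.27 (SE 0.31) for Ighg3 and 0.89 (SE 0.50) for Ighg1. They were 0.38 (SE 0.81) for Ighg2b, -0.13 (SE 0.59) for Ighg2c and 0.18 (SE 0.60) for Igha. Without replicate 1 of TJ-41-fed COPD mice the last 3 were -2.05, -1.70 and -1.37, and without replicate 2 they were 1.25, 0.61 and 0.91. With replicate 1 of control diet-fed COPD mice left out, Ighd turned to 0.56, and with replicate 2 left out Ighg1 was 1.99. These errors leave room for a change of more than 2-fold in either direction in Ighg2b, so a p that misses the threshold does not show that the diets acted alike. None of the members was called, where 0.00487% of all genes tested were.

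The difference between the diet effects in COPD mice and in control mice was tested as an interaction. It was -2.02 (SE 0.48) for Ighg3, -2.62 (SE 1.19) for Ighg2b, -1.23 (SE 0.86) for Igha and -0.26 (SE 0.36) for Ighm. In this fit of all libraries it was below 0 for all 7. None was called, and neither was any gene (0% of all genes tested, 672 at an unadjusted p under 0.05). With DESeq2, 1 member was called, Ighg3. The values moved with the fit, and with the replicate number as a block Ighd was 0.01. Without replicate 1 or 2 of control diet-fed control mice Ighg3 was -1.56 or -2.67, and Igha was -0.80 or -1.84.

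The summed heavy chain counts took 0.0565% to 0.519% of the counts of a library. In CPM the sum was 557 and 668 in control diet-fed control mice, 1067 and 977 on the TJ-41 diet, 3396 and 2996 in control diet-fed COPD mice, and 5111 and 2023 on the TJ-41 diet. The first 3 groups lay apart in that order, and the last spanned both sides of the third. The log2 ratio of the means for the TJ-41 diet in COPD mice was 0.16, and -0.66 without its replicate 1. For COPD mice against TJ-41-fed control mice the ratio was 1.80, and 0.99 without that library.

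The makeup of the sum differed with the model. IgG took 2.77% and 3.88% of heavy chain counts in control diet-fed control mice and 7.61% and 15.8% on the TJ-41 diet. It took 32.8% and 34.8% in control diet-fed COPD mice and 41.7% and 19.1% on the TJ-41 diet. Every library of COPD mice was above every library of control mice, with means of 3.32 ± 0.780, 11.7 ± 5.80, 33.8 ± 1.41 and 30.4 ± 16.0% (SD, n = 2).

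The share of IgD ran the other way. It was 23.0% and 19.5% in control diet-fed control mice, 12.4% and 11.1% on the TJ-41 diet, 3.65% and 1.76% in control diet-fed COPD mice and 1.56% and 3.73% on the TJ-41 diet. The libraries of COPD mice all lay below those of control mice. Since shares add up to the whole, a class can lose share with no change in its own level, and Ighd differed far less in CPM than in share.

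IgM took 58.2% and 48.9% of the counts in control diet-fed control mice and 45.2% and 36.3% on the TJ-41 diet. In COPD mice it took 44.2% and 30.4% on the control diet and 26.4% and 61.5% on the TJ-41 diet, so that the latter group held both the lowest and the highest share of all. IgA took 16.1% and 27.7%, 34.8% and 36.8%, 19.3% and 33.1%, and 30.3% and 15.7% in the same groups. Its mean share was highest in TJ-41-fed control mice (35.8 ± 1.37%), and the COPD libraries overlapped those of control diet-fed control mice.

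Replicate 2 of TJ-41-fed COPD mice had 61.5% IgM and 19.1% IgG where replicate 1 had 26.4% and 41.7%. Their Ighm levels were 1350 and 1245 CPM, so the libraries differed in Ighg2b, Ighg2c and Igha and hardly in Ighm, Ighd or the Ighm to Ighd ratio. Over all genes these replicates were as alike as those of other groups, with a standard deviation of their log2 difference of 0.344. Which of the libraries is nearer to the typical mouse of that group cannot be told from 2.

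**Figure D4:**
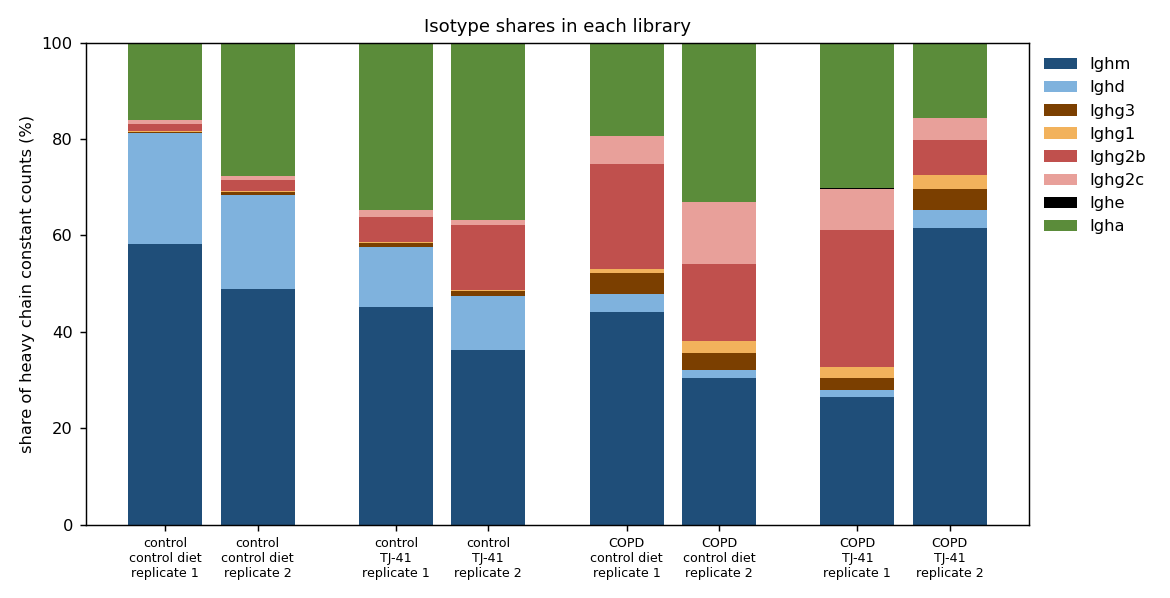
Share of each constant gene in the summed heavy chain counts, in percent, for each of the 8 libraries, stacked from Ighm at the bottom to Igha at the top. The IgG share grows from 2.77% and 3.88% in control diet-fed control mice to 32.8% and 34.8% in control diet-fed COPD mice, and the replicates of TJ-41-fed COPD mice differ.

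Within IgG, no subclass share set all COPD libraries apart from all libraries of control mice. By counts, Ighg2b led in every library, with 38.3% to 84.8% of IgG counts. Per kilobase, which allows for the short annotated exons of Ighg2c (1326 bases against 2512 to 2678 in the others), Ighg2c led in control diet-fed control mice replicate 1 (49.0%), in control diet-fed COPD mice replicate 2 (53.9%) and on the TJ-41 diet replicate 2 (37.4%). On the TJ-41 diet the Ighg2b share per kilobase was lower in COPD mice (55.8% and 30.5%) than in control mice (58.4% and 79.1%) and the Ighg2c share higher (34.5% and 37.4% against 30.5% and 12.3%), without overlap, while on the control diet both overlapped. Ighg2b led in the other libraries, up to 79.1% in TJ-41-fed control mice replicate 2.

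Ighg1 was the smallest share per kilobase in all 8 libraries. It took 2.35% and 2.51% in control diet-fed control mice, 1.42% and 1.35% on the TJ-41 diet, 1.71% and 5.21% in control diet-fed COPD mice, and 4.61% and 12.7% on the TJ-41 diet. On the TJ-41 diet both COPD libraries were above both control libraries, and on the control diet they lay on either side. The control values on the control diet rest on 9 and 15 reads, with exact 95% intervals of 1.40% to 5.71% and 1.69% to 4.91% for the shares of counts of 3.05% and 3.01%.

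**Figure D5:**
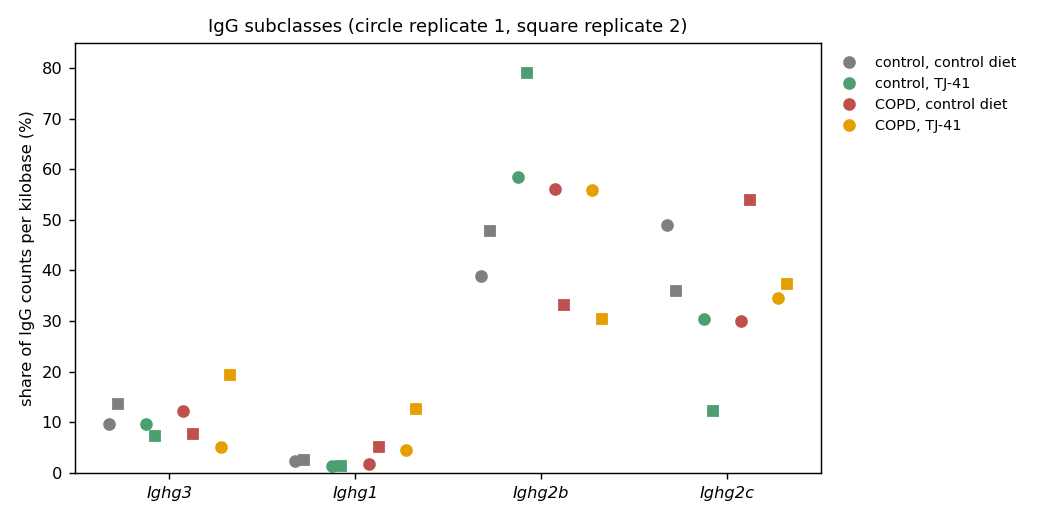
Share of each IgG subclass gene in the IgG counts per kilobase of exon, in percent, for each library, coloured by group with circles for replicate 1 and squares for replicate 2. Ighg2b and Ighg2c trade places between replicates of control diet-fed COPD mice, where Ighg2b has 56.1% and 33.2%, and Ighg1 stays at or below 12.7%.

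Genes that complete or carry an antibody were read beside the heavy chains. All 7 tested members of the list of light chain, J chain and transport genes were higher in COPD mice on either diet, with a median log2 fold change of 1.71 on the control diet and 1.04 on the TJ-41 diet, where the median of all genes was 0.01 and -0.00. Jchain, which links IgM and IgA into polymers, stood at 43.3 and 63.3 CPM in control mice and 803 and 521 CPM in control diet-fed COPD mice, and it rose by 3.64 on the log2 scale (SE 0.47, adjusted p = 0.0343 by edgeR's quasi-likelihood test). It was the only gene of the list called by that test (DESeq2 and the exact test called Igkc, Iglc1 and Pigr as well, and the exact test Iglc2), and with either control library left out it was not.

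Igkc, the kappa light chain, stood at 134 and 147 CPM in control mice and 929 and 1604 CPM in control diet-fed COPD mice, a log2 difference of 3.17 (SE 0.52) that missed the threshold (adjusted p = 0.0802 by edgeR's quasi-likelihood test). On the TJ-41 diet the values were 277 and 209 CPM against 1506 and 445 CPM, with the low library again replicate 2 of COPD mice. Pigr, the epithelial receptor that carries IgA and IgM into the airway and that was picked after its values were seen, stood at 28.7 and 67.7 CPM against 117 and 198 CPM on the control diet, and at 118 and 84.3 CPM against 124 and 91.7 CPM on the TJ-41 diet. Its diets were apart in control mice and its groups overlapped on the TJ-41 diet.

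The counts of B cell markers were uneven and mostly toward lower values between COPD mice and control mice. On the control diet 5 of 18 were higher and 13 lower in COPD mice, with a median log2 fold change of -0.37, and on the TJ-41 diet 2 were higher and 16 lower, with a median of -0.46. Between diets in control mice 8 were higher and 10 lower, with a median of -0.06, and none of the 18 was called by the quasi-likelihood test in these comparisons. The summed CPM of the list was 601 and 623 in control diet-fed control mice, 597 and 589 on the TJ-41 diet, 652 and 341 in control diet-fed COPD mice and 444 and 411 on the TJ-41 diet. The lowest library was replicate 2 of control diet-fed COPD mice, which was also lowest in Ighd, while replicate 1 of that group was above both controls. Calls among the listed antibody genes on that diet depended on which library of COPD mice was kept. The share of all genes called with a library left out was not computed, so nothing is read from those calls. Vpreb3, a relative of the surrogate light chain of B cell precursors, had the largest difference of the B cell list and was among the 5 that were higher, at 11.4 and 11.8 CPM against 20.2 and 29.3 CPM (log2 difference 1.10, SE 0.22). It was not called by the quasi-likelihood test, and it was the B cell gene called by edgeR's exact test and by DESeq2.

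Of 18 plasma cell genes, 14 were higher and 4 lower on the control diet, with a median of 0.14, and none was called. Derl3, which clears misfolded protein from the endoplasmic reticulum, stood at 1.41 and 1.66 CPM against 3.08 and 3.54 CPM. Fkbp11, a chaperone of secretory cells, stood at 4.97 and 2.49 CPM against 5.68 and 9.69 CPM, and Tnfrsf17, the plasma cell survival receptor BCMA, at 0.105 and 0.831 CPM against 1.30 and 0.718 CPM. The summed CPM of the list was nearly flat, from 1064 to 1185 over the 8 libraries, and it is carried by genes such as Xbp1, at 260 to 307 CPM, that lung epithelium expresses too. The part of cell number in the heavy chain levels was not tested.

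The enzymes of class switching were not tested as a group. Their summed CPM on the control diet was 437 and 451 in control mice and 493 and 332 in COPD mice. On the control diet 5 of 18 were higher and 13 lower, with a median of -0.08 and none called. Ung, which removes uracil from DNA, stood at 1.46 and 1.30 CPM against 1.88 and 1.95 CPM, and Apex1, which cuts the resulting abasic sites, at 2.98 and 3.22 CPM against 3.18 and 1.90 CPM. Of 6 tested germinal centre genes, 2 were higher and 4 lower, with none called.

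Among 15 tested cytokines and helper signals, 10 were higher and 5 lower on the control diet, with a median of 0.29. Ccl20, a chemokine that draws B cells and dendritic cells to mucosa, stood at 0.628 and 0.831 CPM in control mice and 4.33 and 9.02 CPM in COPD mice, and it rose by 3.18 on the log2 scale (SE 0.45, adjusted p = 0.0465 by edgeR's quasi-likelihood test). Ccl20 was not called with a filter at a mean of 1 CPM, with the replicate number as a block or in a fit of only the 2 groups. It was also not called with either control library left out. Ccl28, which draws IgA plasma cells, stood at 0.575 and 1.40 CPM against 2.61 and 1.18 CPM, and Ifng, the interferon that favours Ighg2c, at 0.418 and 0.363 CPM against 0.782 and 0.564 CPM, and neither was called.

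Of 8 tested Fc receptor genes, 6 were higher and 2 lower on the control diet, with a median of 0.10 and none called. Fcamr, a receptor for IgA and IgM, stood at 2.62 and 4.67 CPM against 6.0 and 8.0 CPM, Fcer1g, the signalling chain shared by several Fc receptors, at 67.3 and 49.5 CPM against 63.2 and 97.9 CPM, and Ms4a2, the beta chain of the high-affinity IgE receptor, at 0.628 and 1.40 CPM against 2.24 and 0.513 CPM. In the other 3 comparisons no listed antibody gene was called by edgeR's quasi-likelihood test.

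Markers of other cells that lung samples can hold were read alongside. Of 10 T cell genes, 8 were higher on the control diet with a median of 0.43 and none called, and their summed CPM was 132 and 126 in control mice against 166 and 155 in COPD mice. Of 8 lymph node genes listed, 7 were in the count files and 5 were tested, 3 of them higher and 2 lower. Their summed CPM was 197 to 440 over the 8 libraries without following the groups, and Glycam1, which defines lymph node vessels, was at 0 in all but 2 libraries, where it reached 0.103 CPM. Of 9 tested macrophage and neutrophil genes, 4 were higher and 5 lower on the control diet, with a median of -0.32, and 8 were higher and 1 lower in COPD mice on the TJ-41 diet, with a median of 0.45, so that they went in the direction of most heavy chain genes there. Their summed CPM was 8043 and 6874 in TJ-41-fed control mice and 10173 and 11186 in TJ-41-fed COPD mice. On that diet 7 of 10 T cell genes were higher (median 0.27), 2 of 5 lymph node genes (median -0.39) and 13 of 18 plasma cell genes (median 0.10). Of 10 lung genes 6 were higher and 4 lower on the control diet and 5 higher and 5 lower on the TJ-41 diet, with none called in these lists. The part of these cells in the heavy chain results was not tested.

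The genes whose levels ran most like the family over the 8 libraries were found by Pearson's r of log2(CPM + 1), a description with no test, in which much of the likeness comes from the groups that the libraries share. For the summed IgG genes the closest gene outside the family was Jchain (r = 0.983), followed by the kappa joining segments Igkj1 (0.972) and Igkj5 (0.970), the kappa variable segment Igkv1-110 (0.963) and Oosp1 (0.962), which stayed at or below 1.15 CPM. For Ighm the closest were the kappa variable segments Igkv6-15 (0.983) and Igkv14-126 (0.978), then Chl1 (0.977), Gm45218 (0.973) and 3425401B19Rik (0.970).

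For Igha the closest were Tmem8b (0.985), the heavy chain joining segment Ighj2 (0.981), Jph1 (0.980), Fbxl12 (0.976) and the joining segment Ighj4 (0.973). Outside all immunoglobulin segments, the next for the summed IgG genes were Slc6a20a (0.958), Chl1 (0.958) and Gm6758 (0.955). The next for Ighm were Gm47508 (0.970) and Fut1 (0.967), and for Igha Speer4c (0.955) and Eaf2 (0.951), a partner of transcript elongation factors. Tmem8b spanned only 17.5 to 22.7 CPM while Igha spanned 89.4 to 1546 CPM, so a high r does not mean a change of like size.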

How the data were processed

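Lung RNA of 8 mouse libraries was analysed, grouped by their labels. The authors deposited raw read counts per Ensembl gene, without normalization. The submitters' processing notes name HISAT2, edgeR and the genome build mm10 (GRCm38), and the paper's methods name CLC Genomics Workbench. The counting program, annotation release, strand setting and treatment of multi-mapping reads are not given in the sources used here. The labels write the diet as TJ41 in the title and TJ4 in another field, and both were read as TJ-41. Of 52636 gene identifiers, 52489 were matched to GENCODE release M21, which gave names, coordinates, exon lengths and sequences. A symbol with several identifiers was read from the identifier with most counts.

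The genes and lists were chosen with earlier results of these data known, so members are described and not tested as a list. Genes were kept with filterByExpr of edgeR 4.0.16 in R 4.3.3 (minimum count 10, minimum total 15), scaled by TMM and tested with the quasi-likelihood test on the means of the 4 groups (4 residual degrees of freedom, common biological coefficient of variation 0.208). A call needed a Benjamini-Hochberg adjusted p under 0.05 over all 20546 genes and a log2 fold change beyond 1. CPM used TMM-scaled library sizes. Shares are of the summed counts of the 8 genes, with 95% exact Clopper-Pearson intervals for counting error only, and the floor was 3 counts. Intervals treat reads as independent molecules, which PCR copies are not.

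Named genes were the members, called genes of each list, the 3 genes of each list with the largest fold change for control diet-fed COPD mice, and the 5 genes most like Ighm, Igha or summed IgG over the libraries, with and without immunoglobulin segments. Sftpc is among the 3 of the lung list, and any other gene was picked with its values in view. Replicates differed by 11.0 to 80.2 times the variance of counting alone, so no library was a copy. The steps were tested on simulated counts with known changes. Alternatives were DESeq2 1.42.0, edgeR's exact test, relative log expression or library size scaling, looser and stricter filters, only the 2 groups compared, the replicate number as a block, no fold threshold, a joint fit of both diets, per-kilobase shares, Ighd left out of the sum, and each library left out in turn. Values of some genes that the naming rule covers are not reported here.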

Additional observations from a re-analysis of the deposited data

Results flagged for a closer look

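The TJ-41 diet went with opposite directions of Ccl20, a chemokine that attracts B cells, in control mice and in COPD mice. In control mice the level was 0.628 and 0.831 CPM on the control diet and 1.18 and 1.62 CPM on the TJ-41 diet, a log2 ratio of means of 0.94. In COPD mice it was 4.33 and 9.02 CPM on the control diet and 2.82 and 2.30 CPM on the TJ-41 diet, a log2 ratio of -1.38. The diets did not overlap in either case. Of all genes tested, 19.1% were higher without overlap in control mice and 14.9% were lower in COPD mice. Ccl20 was the only hit of a screen over the members, their shares and sum, and the named genes of the lists. Nothing is read from a single hit of such a screen. The difference between the diet effects, tested as an interaction, was -2.31 (SE 0.61), with an adjusted p of 0.999 by edgeR's quasi-likelihood test, and it was not called. No level of a heavy chain constant gene, and no share of one, showed such opposite and complete separations.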

How the results depend on the processing

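Of the values recomputed, 179 were scored as staying and 36 as moved. A count of calls stayed if it was within 1.5 times of the count given, whichever genes made it up. A sum or share stayed if it moved by less than the spread between replicates, so its sign could turn. The IgG share for the TJ-41 diet in COPD mice, for example, went from -3.43 to 7.92 percentage points without replicate 2 of TJ-41-fed COPD mice. With 2 libraries a group, calls near the threshold depend on single libraries, and a fit without one assumes that the library left alone varies like the other groups. The share of all genes called in such a fit was not computed, so the counts with a library left out stand without it. Members called on the control diet numbered 4, against 6 with all genes of at least 1 count, 6 with edgeR's exact test and 5 with DESeq2. They also changed in number with a library left out. On the TJ-41 diet they numbered 2, against 5 with all genes of at least 1 count, 4 with only the 2 groups compared, 5 with edgeR's exact test, 4 with DESeq2 and 0 to 4 with a library left out. For the TJ-41 diet in control mice they numbered 0, against 1 with only the 2 groups compared (Ighg2b), 1 with the exact test and 1 with DESeq2 (Ighg3). For the difference of the diet effects they numbered 0, against 1 with DESeq2. For the TJ-41 diet in COPD mice they numbered 0 in every fit. Relative log expression, library size alone and the false discovery rate alone moved no count of members by over 1.5 times. Ighm lost its call on the control diet with library size alone (adjusted p = 0.0730 by edgeR's quasi-likelihood test), with a mean of at least 1 CPM (0.0552) and with only the 2 groups compared (0.142).

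Listed antibody genes called on the control diet numbered 2, against 6 with all genes of at least 1 count, 1 with a mean of at least 1 CPM (Jchain), 7 with the exact test, 6 with DESeq2 and 0 to 16 with a library left out. On the TJ-41 diet they numbered 0, against 2 with all genes of at least 1 count, 5 with only the 2 groups compared, 2 with the exact test, 2 with DESeq2 and 0 to 1 with a library left out. For the TJ-41 diet in control mice they numbered 0, against 1 with only the 2 groups compared and 1 with DESeq2, Jchain in both. For the TJ-41 diet in COPD mice they numbered 0, and 0 to 7 with a library left out. The cause was not tested.

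The log2 ratio of summed heavy chain CPM ran from 0.99 to 2.32 with a library left out for TJ-41-fed COPD mice, and from -0.66 to 0.68 for the TJ-41 diet in COPD mice. The IgM share differed by -29.8 percentage points for control diet-fed COPD mice with Ighd left out of the sum, against -16.3 with it. For the TJ-41 diet in control mice it differed by -21.9 with Ighd left out, against -12.8.

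Whether replicate numbers pair the libraries is not given in the sources used here. The differences between replicates correlated from -0.248 to 0.140 between groups, which cannot decide it, since libraries handled together need not differ alike. With the replicate number as a block, 3 members were called on the control diet, where Ighg2c lost its call (adjusted p = 0.0548 by edgeR's quasi-likelihood test), 2 on the TJ-41 diet and 0 in the other comparisons, and the listed antibody genes called on the control diet numbered 1 (Jchain).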
